A study of Homo sapiens with 12 samples.

Results

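The genes described here encode 10 zinc finger factors that bind GC-rich promoter DNA: MAZ and VEZF1, the SP factors SP1, SP2, SP3 and SP4, and the Krüppel-like factors KLF4, KLF6, KLF10 and KLF16. What was measured was the DNA of their own promoters, and neither the proteins nor their transcripts. For each gene, the read counts came from the annotated start-site window on the gene's strand whose centre lay nearest the RefSeq 5′ end, within 1 kb, and the peaks were all those from 5 kb upstream to 5 kb downstream of the gene. All 10 genes had such a window, out of 17318 protein-coding genes that could be named by the same rule. The genes were chosen by family, with earlier results on their window levels and peaks known, so these are described without a test.

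The study mapped DNA G-quadruplexes in HEK293, an established line of human embryonic kidney cells, by chromatin immunoprecipitation and sequencing. Cells grown in serum-containing medium were fixed with formaldehyde, the chromatin was sheared and treated with RNase, and G-quadruplexes were captured with BG4, an engineered flag-tagged antibody. There was 1 condition, with 3 biological replicates (BioRep1, BioRep2 and BioRep3), each of 3 technical ChIP libraries and 1 input. The inputs were not analysed here, so no level below is corrected for differences between regions in the starting chromatin. The labels do not say whether the biological replicates were separate cultures. The test compared the biological replicates as groups of technical libraries, so its p-values rest on the spread between technical libraries.

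A G-quadruplex is a stack of planar guanine tetrads that single-stranded DNA with several runs of guanines can fold into, and many such sequences lie just upstream of human genes. SP and KLF proteins share a carboxy-terminal array of C2H2 zinc fingers that binds GC boxes and CACCC boxes, while MAZ and VEZF1 bind longer runs of guanines. The binding sequences of these factors and the sequences that fold into G-quadruplexes are therefore made of the same guanine runs.

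The 250 bases upstream of a RefSeq start site (GRCh38.p14, from RefSeq) are shown for 6 promoters that span the range of what was found. They are written 5′ to 3′ on the gene's strand, and capitals mark the G-quadruplex motif, defined as 4 runs of 3 or more G with loops of 1 to 7 bases between them. Where the capitals are runs of C, the G runs lie on the opposite strand. MAZ (chr16:29806279-29806528, plus strand) had the highest level and the longest peaks, and SP4 (chr7:21427833-21428082, plus strand) came next. The second start site of SP3 (chr2:173965374-173965623, minus strand) carried the motif inside a peak of every list. SP2 (chr17:47895986-47896235, plus strand) had a peak in every list and no motif. VEZF1 (chr17:57988255-57988504, minus strand) had a long motif and no peak. KLF4 (chr9:107489770-107490019, minus strand) had a motif on each strand and a peak in 2 of the 3 lists.
MAZ: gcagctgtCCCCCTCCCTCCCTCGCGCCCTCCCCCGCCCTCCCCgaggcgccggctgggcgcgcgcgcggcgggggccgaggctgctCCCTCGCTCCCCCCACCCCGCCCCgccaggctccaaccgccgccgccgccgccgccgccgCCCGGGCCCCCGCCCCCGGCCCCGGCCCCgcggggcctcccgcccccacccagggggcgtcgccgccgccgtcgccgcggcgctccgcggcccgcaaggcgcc
SP4: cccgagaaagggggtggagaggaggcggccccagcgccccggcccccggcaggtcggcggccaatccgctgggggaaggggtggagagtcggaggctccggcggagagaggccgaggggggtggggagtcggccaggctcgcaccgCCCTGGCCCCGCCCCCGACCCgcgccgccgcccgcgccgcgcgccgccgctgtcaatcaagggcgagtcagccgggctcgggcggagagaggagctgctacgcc
SP3, start 2: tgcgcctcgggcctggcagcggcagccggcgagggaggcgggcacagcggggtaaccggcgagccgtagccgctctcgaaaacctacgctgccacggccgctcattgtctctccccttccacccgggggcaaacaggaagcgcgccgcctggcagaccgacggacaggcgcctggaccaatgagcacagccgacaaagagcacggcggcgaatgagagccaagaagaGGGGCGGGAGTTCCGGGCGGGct
SP2: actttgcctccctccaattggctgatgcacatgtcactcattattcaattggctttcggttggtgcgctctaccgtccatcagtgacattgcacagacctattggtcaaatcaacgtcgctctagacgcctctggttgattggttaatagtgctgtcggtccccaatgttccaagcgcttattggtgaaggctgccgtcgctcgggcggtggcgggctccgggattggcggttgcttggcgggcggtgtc
VEZF1: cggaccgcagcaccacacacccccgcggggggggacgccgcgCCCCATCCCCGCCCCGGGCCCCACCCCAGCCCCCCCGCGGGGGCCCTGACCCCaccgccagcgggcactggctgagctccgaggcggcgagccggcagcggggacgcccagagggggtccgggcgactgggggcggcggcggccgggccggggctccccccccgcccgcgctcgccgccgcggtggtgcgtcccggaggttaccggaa
KLF4: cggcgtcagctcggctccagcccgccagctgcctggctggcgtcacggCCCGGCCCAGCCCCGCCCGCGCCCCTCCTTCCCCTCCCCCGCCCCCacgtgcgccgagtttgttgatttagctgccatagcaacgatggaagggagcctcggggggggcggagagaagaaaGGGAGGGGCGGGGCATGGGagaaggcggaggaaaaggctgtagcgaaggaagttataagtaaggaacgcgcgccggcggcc

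In these letters MAZ held 3 separate motifs, all with their G runs on the strand opposite to the gene, covering 89 bases in all. The SP4 motif of 21 bases and the VEZF1 motif of 53 bases were also on the opposite strand. In SP3 the 21-base motif lay on the gene's strand and ended 3 bases before the second start site. KLF4 carried 1 motif on each strand, 65 bases in all.

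Read counts of each library were divided by its total over all windows (CPM, per 1e6 reads in windows). Each biological replicate was the average of its 3 technical libraries, and the SD is that between the 3 biological replicates. The libraries held 372030 to 846114 reads in windows. A window is 400 bp long, 200 bp to each side of the annotated start site, so levels of different genes are per equal length of DNA. Windows of protein-coding genes with a peak in all 3 lists had a median of 64.6 CPM (4089 windows), and those without a peak in any list had a median of 11.1 CPM (10237 windows). In this bulk measurement, fewer DNA molecules with a folded structure and weaker capture of each molecule cannot be told apart.

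A majority of the GC-box factor genes carried a BG4 peak at the start site. A peak overlapped the window in all 3 lists for 7 of the 10 genes (MAZ, SP2, SP3, SP4, KLF6, KLF10 and KLF16), against 23.6% of all named protein-coding windows. SP1 had a peak in the window in 2 lists, which brought the genes with a peak in at least 2 lists to 8 of 10, against 33.8% of all protein-coding windows. VEZF1 and KLF4 had none in the window, and 40.9% of protein-coding windows had a peak in at least 1 list. The median level of the 10 genes was 65.8 CPM, against 23.2 CPM over all named protein-coding windows. Levels ran from 160 CPM at MAZ, rank 16 of 17318, to 15.7 CPM at KLF4, rank 10336.

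**Figure D1:**
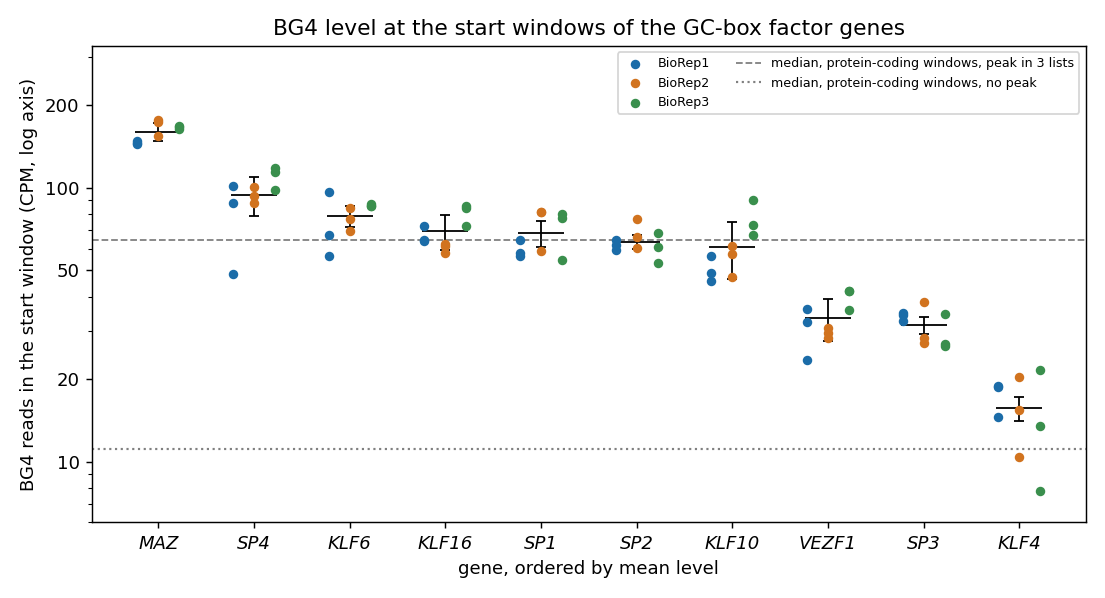
BG4 level in the start window of each GC-box factor gene, in CPM on a log axis, with 1 point per technical library coloured by biological replicate, the mean as a bar and the SD over 3 biological replicates as whiskers; dashed and dotted lines are the medians of protein-coding windows with a peak in all 3 lists and with none. MAZ stands above all others, 6 genes from SP4 to KLF10 lie between 60.8 and 94.4 CPM, VEZF1 and SP3 lie at 33.4 and 31.5 CPM, and KLF4 lies lowest at 15.7 CPM.

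In the plot of levels by library, the order has 3 steps larger than the SDs of both neighbours added together. MAZ lay above SP4 by 65.9 CPM, KLF10 lay above VEZF1 by 27.5 CPM, and SP3 lay above KLF4 by 15.8 CPM. At each of these steps the 3 replicate values of the higher gene were all above those of the lower gene. SP4, KLF6, KLF16, SP1, SP2 and KLF10 followed each other in steps smaller than that sum, and so did VEZF1 and SP3.

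MAZ, the Myc-associated zinc finger protein, binds runs of guanines at many promoters and at chromatin boundaries. Its window was ENSG00000103495.13 (hg38 chr16:29805907-29806306, plus strand), over the 5′ end of the gene. The 3 libraries of BioRep1 had 146, 145 and 149 CPM, those of BioRep2 had 173, 155 and 177 CPM, and those of BioRep3 had 168, 167 and 163 CPM. Every BioRep2 and BioRep3 library thus lay above every BioRep1 library, and all 9 lay above every library of the other 9 genes. The mean was 160 ± 12.1 CPM (SD, n = 3), resting on 894 reads over the 9 libraries, and was 20.2 ± 2.60 times the median of all windows without a peak. Against the 218 windows without a peak within 2 Mb, the ratio was 16.8 ± 2.41.

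A single peak covered the whole MAZ window in each list. Merged over the lists it ran from -690 to 498 bp relative to the RefSeq 5′ end, 1189 bp in all. Of 6080 regions of the series with peaks in all 3 lists, 4 were at least as long, this one included. The start site of the sequence shown above lies 405 bp inside the gene as RefSeq bounds it, so 20 of the 89 motif bases fell in the counting window while all 89 lay in the peaks of every list. A second region within the gene, 1513 to 2054 bp from the 5′ end, had peaks in all 3 lists, and one between 541 and 800 bp had peaks in 2. A pair of further regions with peaks in all 3 lists lay past the gene's 3′ end, 5040 to 5358 bp and 9758 to 10064 bp from the 5′ end.

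VEZF1, the vascular endothelial zinc finger protein that mouse embryos need to form blood vessels, recognises runs of guanines much like those that MAZ binds. Its window (ENSG00000136451.8, chr17:57988060-57988459, minus strand) held 36.0, 32.3 and 23.6 CPM in the libraries of BioRep1, 29.5, 30.7 and 28.2 CPM in those of BioRep2, and 42.1, 35.9 and 42.1 CPM in those of BioRep3. The BioRep1 values overlapped those of both other replicates, while BioRep3 lay above BioRep2. The mean of 33.4 ± 5.80 CPM (SD, n = 3) lay at percentile 61.3 of protein-coding windows. No list had a peak within 5 kb of the gene, and the nearest peaks lay 19152, 18673 and 18668 bp from the window in BioRep1, BioRep2 and BioRep3. The level was still 3.28 ± 0.533 times the local median of windows without a peak. Of the 53 motif bases shown above, 50 lay inside this window, in a promoter of 82.7% G and C. The window overlaps by 321 bp that of a divergent non-coding gene, LOC101929185 (31.9 ± 5.70 CPM), and shares reads with it.

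SP1, the ubiquitous activator for which the family is named, had 59.6, 74.0 and 70.8 CPM in BioRep1, BioRep2 and BioRep3 (68.1 ± 7.55 CPM, SD, n = 3; ENSG00000185591.9, chr12:53379977-53380376, plus strand). Peaks overlapped the window in BioRep2 by 260 bp and in BioRep3 by 129 bp, and the nearest BioRep1 peak ended 32 bp outside it. BioRep1, the list with the fewest peaks, also had the lowest level here, and the difference is tested below. Peaks of all 3 lists met in a region from -715 to -510 bp and in another from -482 to 102 bp relative to the 5′ end. The next region, from 241 to 522 bp, was in the lists of BioRep2 and BioRep3. RefSeq places a second SP1 start site at 468 bp downstream of the first, and this second promoter had 2 G-quadruplex motifs covering 58 bases, which lay in a peak in BioRep3 alone. The first SP1 promoter had no such motif.

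SP2, an SP factor that mouse embryos need to develop, had 61.9, 67.6 and 60.8 CPM in BioRep1, BioRep2 and BioRep3 (63.4 ± 3.69 CPM, SD, n = 3; ENSG00000167182.14, chr17:47895951-47896350, plus strand). These values differed little, with a coefficient of variation of 5.82% between biological replicates, the lowest among the 10 genes. One region from -468 to 70 bp relative to the 5′ end had peaks in all 3 lists, and 130 bases of the 300-base promoter were in the peaks of every list. The promoter had the lowest share of G and C among the 12 examined, 58%, and no G-quadruplex motif. A divergent non-coding gene, SP2-DT, starts beside it, and its window (53.3 ± 8.08 CPM, a peak in 2 lists) overlaps that of SP2 by 62 bp.

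SP3, which acts as activator or repressor depending on context, had 34.0, 31.2 and 29.3 CPM in BioRep1, BioRep2 and BioRep3 (31.5 ± 2.36 CPM, SD, n = 3; ENSG00000172845.14, chr2:173965503-173965902, minus strand). This was the lowest level among the 7 genes with a window peak in every list, and the peaks reached into the window by 11, 31 and 27 bp only. RefSeq gives SP3 3 start sites in its promoter table, the outermost at the 5′ end and the others 329 and 1822 bp inside the gene. At the outermost start, where the window lies, no list had a peak in the 300-base promoter. At the second start all 3 lists had a peak, with a shared part from position -140 to 24 relative to that start that held the whole 21-base motif. At the innermost start the shared part was 52 bases long and the promoter had no motif. The low window level of SP3 is thus the level at its outermost start, and the peaks lay further in.

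SP4, an SP factor abundant in brain, had the second highest level. Its libraries held 87.7, 48.4 and 101 CPM in BioRep1, 93.7, 100 and 87.7 CPM in BioRep2, and 98.2, 118 and 115 CPM in BioRep3 (94.4 ± 15.5 CPM, SD, n = 3; ENSG00000105866.13, chr7:21427835-21428234, plus strand). One BioRep1 library lay far below the other 8, and the remaining libraries of the 3 replicates overlapped. A region from -309 to 206 bp relative to the 5′ end had peaks in all 3 lists and held the whole 21-base motif, and a separate region from -981 to -556 bp also had peaks in all 3. Windows without a peak within 2 Mb had a median of 7.79 CPM, and SP4 had 12.3 ± 2.77 times the local median.

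KLF6, a Krüppel-like factor with tumour suppressor functions, had 73.4, 76.9 and 86.4 CPM in BioRep1, BioRep2 and BioRep3 (78.9 ± 6.75 CPM, SD, n = 3; ENSG00000067082.14, chr10:3785082-3785481, minus strand). A single region from -362 to 50 bp relative to the 5′ end held all of its peaks. The 23-base motif of its promoter lay whole in the peaks of BioRep2 and BioRep3, and 10 of its bases lay in the BioRep1 peak. KLF16, a repressor of the SP1-like group, had 67.1, 60.6 and 80.9 CPM (69.5 ± 10.4 CPM, SD, n = 3; ENSG00000129911.8, chr19:1863369-1863768, minus strand). At its start 1 peak of each list joined into a region of 868 bp from -821 to 46 bp, the longest among these genes after that of MAZ. Of its 4 other regions, each of them 204 bp or shorter, 1 was in 2 lists and 3 were in 1 list. The KLF16 promoter was 86% G and C and held GC boxes but no G-quadruplex motif.

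The RefSeq gene entry of KLF16 reaches beyond this start. The nearest window on that strand to its outer end, 367 bp away, is annotated under another Ensembl gene (ENSG00000261526.2) and had 44.7 ± 0.927 CPM with a peak in 2 lists.

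KLF4, known for its part in reprogramming cells to pluripotency, had 17.4, 15.4 and 14.3 CPM in BioRep1, BioRep2 and BioRep3 (15.7 ± 1.57 CPM, SD, n = 3; ENSG00000136826.14, chr9:107490283-107490682, minus strand). This lies near the 11.1 CPM of protein-coding windows without a peak and rests on 87 reads in all. The window is centred 713 bp upstream of the RefSeq start, the farthest of the 10 genes, the next being KLF10 at 177 bp. At the RefSeq start itself, peaks of BioRep1 and BioRep2 formed a region from -161 to 28 bp, and the nearest BioRep3 peak was 206232 bp from the window. The BioRep1 peak held 19 and the BioRep2 peak 24 of the 65 motif bases. The low KLF4 level therefore describes a stretch of DNA away from its peaks. Over all named protein-coding windows, 871 of 17318 (5.03%) were centred more than 500 bp from the RefSeq 5′ end.

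KLF10, a transforming growth factor-β inducible repressor, had the widest spread between biological replicates, with a coefficient of variation of 23.3%. The libraries of BioRep3 held 90.4, 73.2 and 67.4 CPM, those of BioRep2 held 57.2, 47.3 and 61.1 CPM, and those of BioRep1 held 56.4, 45.7 and 48.9 CPM (60.8 ± 14.2 CPM, SD, n = 3; ENSG00000155090.14, chr8:102655703-102656102, minus strand). All 3 BioRep3 libraries lay above all 6 others. A region from -218 to 121 bp relative to the 5′ end had peaks in all 3 lists, and so did a longer one of 578 bp inside the gene, 1393 to 1970 bp from the 5′ end. Another region, from -530 to -329 bp, had peaks in BioRep2 and BioRep3. The motif content of its promoter was not analysed here.

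**Figure D2:**
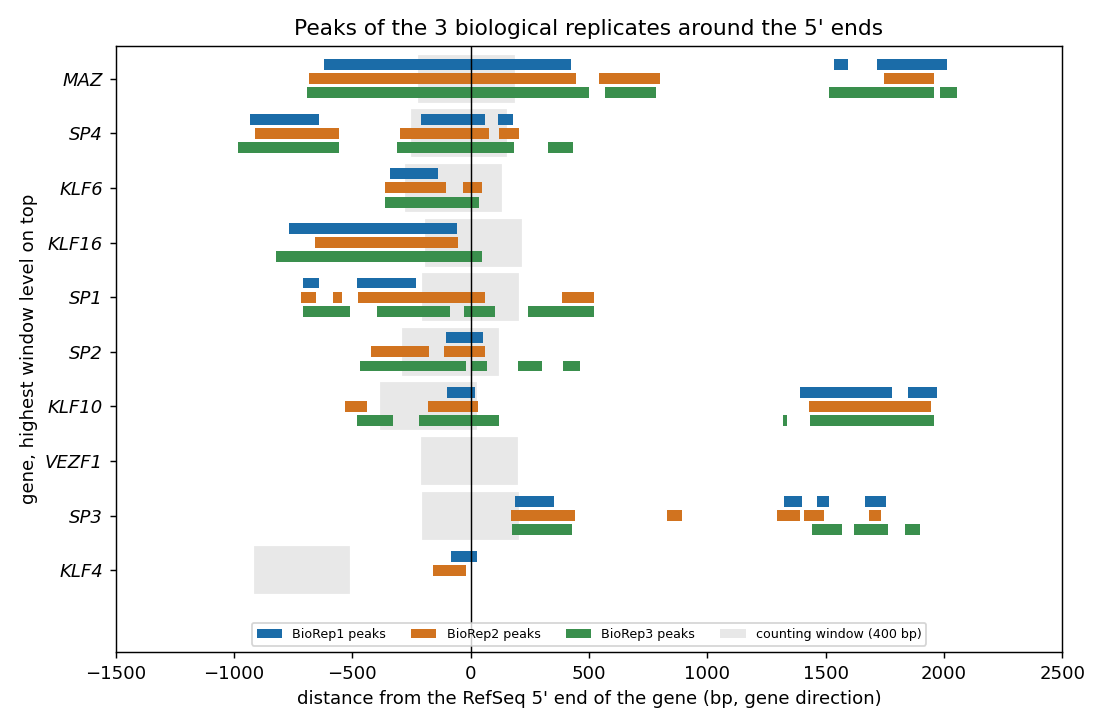
Peaks of each biological replicate (coloured bars) around the RefSeq 5′ end of each GC-box factor gene, by distance in bp in the direction of the gene, with the 400 bp counting window in grey. Merged regions with peaks in all 3 lists span the 5′ end of 7 genes, but only at MAZ, SP4 and KLF10 does a peak of every list cover it. VEZF1 has no peaks, the SP3 peaks lie inside the gene, and the KLF4 window lies upstream of its peaks.

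Within 5 kb of the 10 genes there were 22 peaks in the BioRep1 list, 29 in BioRep2 and 31 in BioRep3, out of 7931, 11665 and 13049 in the whole lists. Merged where they overlapped by 1 bp or more, they formed 32 regions, of which 16 had peaks in all 3 lists, 6 in 2 and 10 in 1. The share in all 3 lists was 50%, against 40.9% of the 14882 regions of the whole series. In the map of peaks around the 5′ ends, 7 of these 16 regions spanned a 5′ end, 2 lay upstream, 5 within the gene and 2 downstream, both of them at MAZ. A peak of every list covered the 5′ end itself only at MAZ, SP4 and KLF10. At SP1, SP2, KLF6 and KLF16 the merged region spanned it, but not every list had a peak over it. The regions in all 3 lists had a median length of 419.5 bp, against 327 bp over the series. The lists differ in peak length as a whole, with a median of 124 bp in BioRep1, 149 bp in BioRep2 and 169 bp in BioRep3 over all their peaks.

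A comparison between biological replicates was the one test the design allowed. It asked whether any window differed among BioRep1, BioRep2 and BioRep3 beyond the spread of the technical libraries, with edgeR's quasi-likelihood test (2 df, Benjamini-Hochberg over 17499 windows). None passed at an adjusted p of 0.05 (0%), while 1379 had an unadjusted p under 0.05, and DESeq2's likelihood ratio test also called 0, with 334. No GC-box factor gene was called, against this background of 0%. Counts per window were low, so a small difference could be missed, and the absence of calls does not show that the replicates were equal. KLF10 came closest among them, with an unadjusted p of 0.0065 and an adjusted p of 0.468 by edgeR. Its log2 difference was 0.54 (SE 0.18) between BioRep3 and BioRep1 and 0.48 (SE 0.16) between BioRep3 and BioRep2. For SP4 the log2 difference of BioRep3 over BioRep1 was 0.35 (SE 0.14), with an adjusted p of 0.677 for the 2 df edgeR test. Without the low second library of BioRep1 it was 0.19 (SE 0.15), and the adjusted p was 0.878.

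The BioRep1 libraries of MAZ lay below those of BioRep2 and BioRep3, which overlapped. MAZ had a log2 difference of 0.16 (SE 0.11) for BioRep2 over BioRep1 and 0.13 (SE 0.11) for BioRep3 over BioRep1. Its adjusted p by edgeR was 0.876. SP1, with a window peak in BioRep2 and BioRep3 and none in BioRep1, had log2 differences of 0.33 (SE 0.17) for BioRep2 over BioRep1 and 0.21 (SE 0.17) for BioRep3 over BioRep1, and an adjusted p of 0.795 by edgeR. The lists thus differed in whether an SP1 peak reached the window, which the BioRep1 peak missed by 32 bp. All 3 lists had a peak in the region from -482 to 102 bp that the window overlaps. The read level of SP1 did not pass the test of a difference.

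Promoter sequences were in the RefSeq table for 9 of the 10 genes, with 12 start sites. A search of the 300 bases from 250 before to 50 after each start, on both strands, found the G-quadruplex motif in 7 of 9 genes and 7 of 12 promoters, against 30.4% of 22199 protein-coding promoters. The GC box GGGCGG, the core site of SP factors, occurred in all 9 genes and all 12 promoters, against 56.3% of protein-coding promoters. The sequence GGGAGGG, the core of MAZ sites, occurred in 5 genes and 7 promoters, against 31.1%. CACCC, the KLF-type box, occurred in 4 genes and 6 promoters, against 63.4%. These motifs are made of the same letters and can overlap: a GC box lay wholly within a G-quadruplex motif in 6 of the 7 genes with that motif, KLF6 being the exception. A match describes the letters of the window and is no measure of binding.

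**Figure D3:**
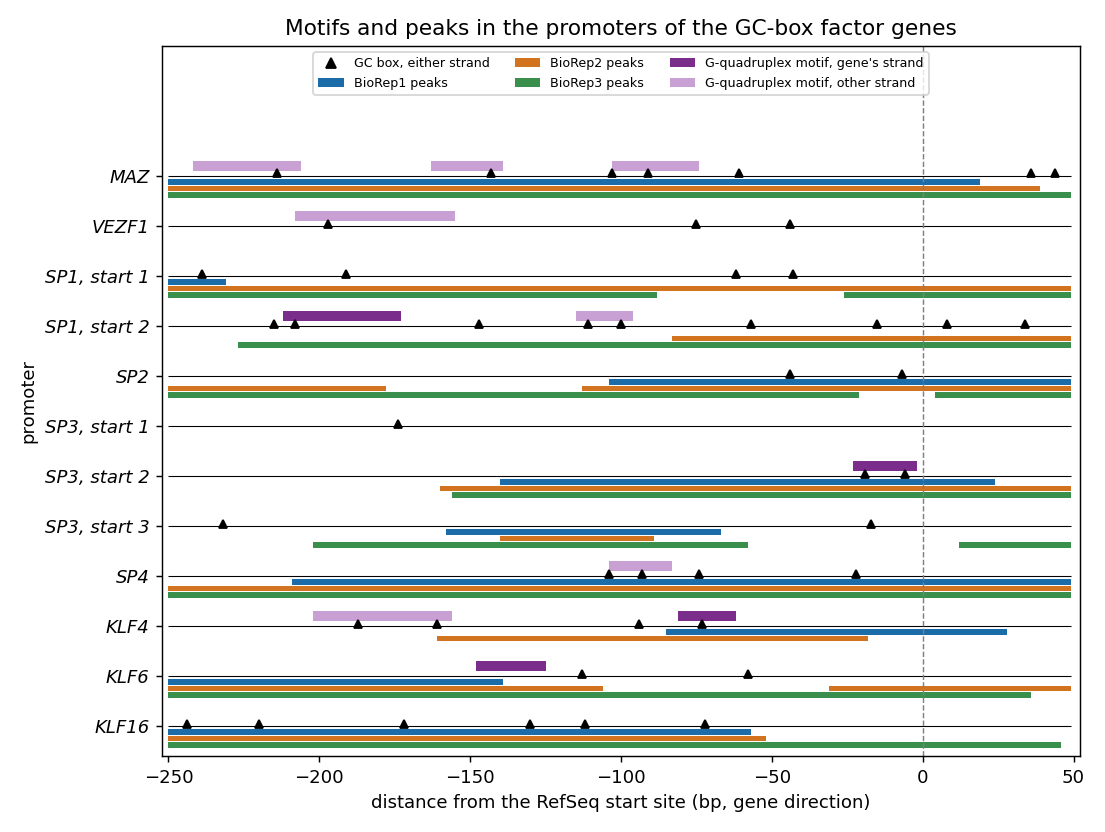
Positions of G-quadruplex motifs (purple, dark for the gene's strand and light for the other), GC boxes (triangles) and peaks of each biological replicate (coloured bars) in 12 promoters of 9 genes, by distance from the RefSeq start site in bp. All 12 promoters have GC boxes, peaks cover the motifs of MAZ, SP4 and the second SP3 start in every list, and VEZF1 has a motif without a peak.

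Motif and peak did not always go together, as the map of motifs and peaks shows. Peaks of all 3 lists overlapped 8 of the 12 promoters, against 22.7% of protein-coding promoters. The motif lay wholly within the peaks of every list at MAZ, SP4 and the second SP3 start. Of the 8 promoters with peaks of every list, 4 had no motif in those bases: those of SP2 and KLF16, the first of SP1 and the innermost of SP3. At the first SP1 promoter the peaks of all 3 lists shared 20 bases only. The regions at SP2 (-468 to 70 bp), KLF16 (-821 to 46 bp) and SP1 (-482 to 102 bp) reached beyond the bases searched. The letters of the peaks outside the promoters were not examined. VEZF1 had a motif and no peak. Over all protein-coding promoters, 29.5% of those with the G-quadruplex motif had a peak in all 3 lists, against 19.8% of those without it. For the GC box the shares were 34.4% with and 7.63% without. GGGAGGG gave 25.3% with and 21.5% without, and CACCC gave 22.6% with and 22.9% without. The promoters of the 9 genes had a median of 72.3% G and C (58% to 88%), against 62.3% over all protein-coding promoters, whose quartiles were 53% and 70%. The share of G and C differs between the promoters being compared, and its part in these shares was not tested.

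Lists of other genes of the same families had lower medians. Of the other SP genes, 3 of 5 had a named window and none had a peak in any list. SP8, a limb and brain factor in the mouse, had 24.7 ± 2.32 CPM, SP7, the bone factor osterix, had 20.9 ± 3.07 CPM, and SP5 had 10.96 ± 3.24 CPM. Of the other KLF genes, 13 of 14 had a window and 2 had a peak in all 3 lists, with a median of 21.2 CPM. Those 2 were the highest, KLF15 at 43.5 ± 7.21 CPM and KLF13 at 41.6 ± 6.07 CPM. KLF17 (8.74 ± 3.43 CPM) and KLF8 (7.80 ± 0.370 CPM) were the lowest. The median of the 10 GC-box factor genes was 65.8 CPM against 20.9 CPM for the other SP and 21.2 CPM for the other KLF genes, and since the 10 were chosen with these values known, the difference was not tested.

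**Figure D4:**
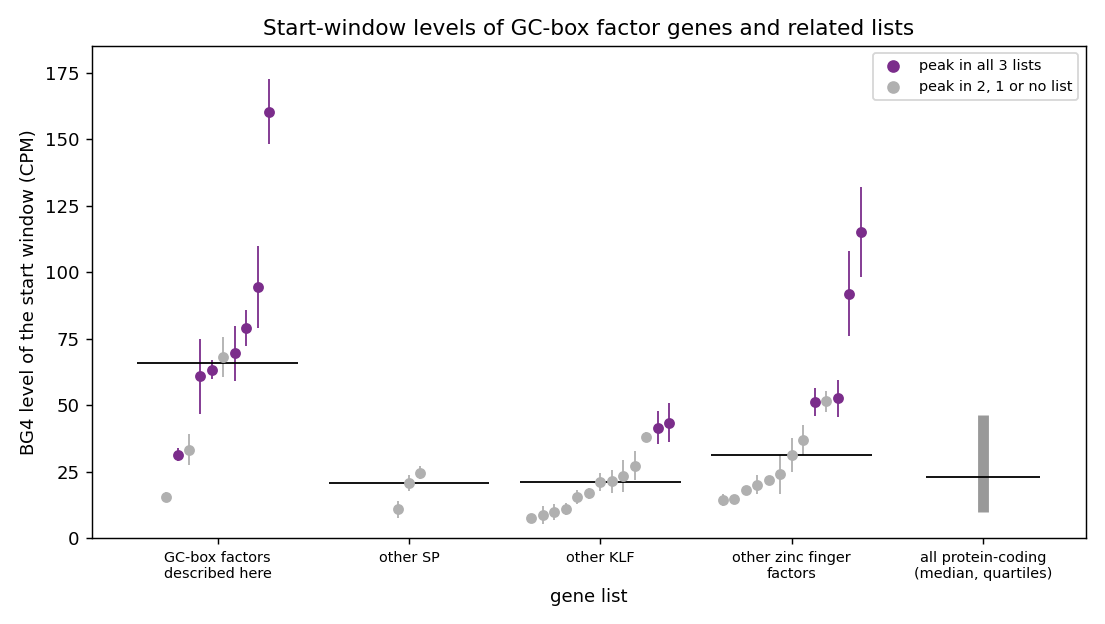
BG4 level of the start window in CPM for the GC-box factor genes and for 3 lists of related genes, with 1 point per gene, whiskers for the SD over 3 biological replicates, bars for list medians, and the median and quartiles of all named protein-coding windows at the right. Genes with a peak in all 3 lists are purple; the list medians are 65.8, 20.9, 21.2 and 31.2 CPM.

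Other zinc finger factors of GC-rich promoters lay between, as the plot of related lists shows. Of 15 such genes, 13 had a window and 4 had a peak in all 3 lists, with a median of 31.2 CPM. E4F1, a regulator of cell proliferation, had 115 ± 16.9 CPM and CTCF, the insulator protein, had 92.0 ± 16.0 CPM. E4F1 lay between MAZ and SP4, and CTCF differed from SP4 by less than the SD of either. EGR3 (14.7 ± 1.204 CPM) and ZBTB14 (14.4 ± 2.28 CPM) were the lowest of the list, close to KLF4.

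The genes whose levels in the 9 libraries were most like those of MAZ were RRM2B, a ribonucleotide reductase subunit, IBA57, a mitochondrial iron-sulphur cluster protein, and PKNOX1, a homeodomain factor. Their distances in log2(CPM + 1) over the 9 libraries were 0.33, 0.33 and 0.42, out of 17308 genes compared. RRM2B had 165 ± 16.6 CPM, IBA57 164 ± 8.19 CPM and PKNOX1 169 ± 22.5 CPM, each with a peak in all 3 lists. For SP2, a gene near the median of the 10, the closest were CPSF3, the nuclease that cleaves pre-mRNA at its 3′ end, PCNX4, and the histone acetyltransferase HAT1, at distances of 0.26, 0.32 and 0.33. They too had a peak in all 3 lists, with 63.2, 63.5 and 64.8 CPM.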

How the data were processed

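Reads of 9 BG4 ChIP libraries were counted by the authors in windows of 400 bp around the start sites of GENCODE release 28 on hg38, per the file names, and deposited as raw counts per window, without scaling for depth or input. The authors deposited 1 peak list per biological replicate, with positions and no score. Tools named in the submitters' processing notes are BWA, cutadapt, bedtools, MACS2 and Picard, with no version or role, on build hg38. Not given in the sources used here were the peak thresholds, the joining of technical libraries and the use of marked duplicates, whose removal limits the counts of dense windows. The 3 inputs were not analysed here.

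Groups came from the sample titles. The members and gene lists were chosen with earlier results of these data known. Windows carry Ensembl IDs, and took names from the RefSeq gene table of GRCh38.p14 by strand and nearest 5′ end within 1 kb. For KLF16 the nearest start was an inner one, and for KLF10 the strand came from the single gene end that matched a window. CPM was computed on reads in windows, which is not the full depth of a library. Percentiles are among 17318 protein-coding windows. Peaks were joined when they overlapped by 1 bp or more.

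Named besides the 10 genes were the 2 highest and the 2 lowest of each related list, the 3 genes nearest to the highest and to the median member in log2(CPM + 1), and genes sharing a promoter with a member. Windows were tested with edgeR's quasi-likelihood test (TMM, filterByExpr, robust fit) after tests on simulated data. Alternatives were DESeq2 and its size factors, no filter, the technical number as a block, left-out libraries and replicates, and other overlap, distance and motif rules. Python 3.11.15, numpy 2.4.6, pandas 2.3.3, scipy 1.17.1, matplotlib 3.10.9, R 4.3.3, edgeR 4.0.16 and DESeq2 1.42.0 were used.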

Additional observations from a re-analysis of the deposited data

Results flagged for a closer look

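One value stood apart from the rest of its gene. SP4 had 48.4 CPM in the second technical library of BioRep1, against 87.7 to 118 CPM in the other 8 libraries; the gap to the nearest was 0.566 of the whole range, above Dixon's 95% critical value for 9 samples. That library held 18 reads in the SP4 window and was the shallowest of the 9, with 372030 reads in windows. Chance flags about 1 in 20 groups, 10 genes were examined, and the 9 libraries are technical libraries of 3 biological replicates and so not independent. The part of depth in this value was not tested.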

How the results depend on the processing

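The call of no GC-box factor gene between biological replicates held in all 16 alternatives run, except that KLF4 did not pass the filter and was not tested without BioRep1. In these the lowest adjusted p of a member was 0.310, by edgeR with no filter. Over all windows the count was 0 with DESeq2 size factors and with DESeq2's likelihood ratio test, 25 with no filter (3782 at an unadjusted p under 0.05), and between 0 and 1 when 1 library was left out, with 1 call without the first library of BioRep1 and without the second of BioRep3; the cause was not tested. With the technical number as a replicate block 0 windows were called. Deviations of same-numbered libraries correlated between -0.0124 and 0.0251, and those of differently numbered libraries between -0.0194 and 0.0211. Counts per window were low, so a weak effect shared by same-numbered libraries could be missed. Of 150 alternative levels, 1 moved by more than its SD. It was KLF16 with the window of another Ensembl gene near its outer end (44.7 CPM, chosen after seeing the data). Leaving out 1 of 3 replicates cannot shift a mean by its SD. A limit of 200 bp gave the same window for every gene but KLF4, whose window is centred 713 bp away and was lost. The ratio to windows without a peak moved more. Taken within 2 Mb, it fell by over its SD at MAZ (20.2 to 16.8), SP1 (8.60 to 6.63) and SP2 (7.97 to 6.36). It fell likewise at SP3 (3.95 to 3.35) and KLF16 (8.79 to 6.66) and rose at KLF4 (1.96 to 2.20). At the other genes it moved by less than its SD.

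Genes with a window peak in all 3 lists numbered 6 with an overlap of 50 bp, which dropped SP3, 6 with only the peaks above their list's median width, which dropped KLF10, and 8 within 1 kb or without BioRep1, which added SP1. Taking any promoter of the RefSeq table, also chosen after seeing the data, gave 7 of the 9 genes with an entry, SP1 among them. KLF10 had no entry there and was not examined by this rule, though a region with peaks in all 3 lists spans its 5′ end. Of the 9 genes with an entry, the motif occurred in 8 with loops up to 12 bases, which added KLF16 (45.5% of protein-coding promoters). It occurred in 9 with runs of 2 G (88.2%) and in 4 on the gene's strand alone (17.9%). A gene counted if any of its promoters had the motif, whereas the shares are per promoter, so the 2 are not measured alike. KLF4 rests on the fewest reads, 5 to 15 per library.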

Other observations

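The windows counted here can lie away from the peaks of their gene, as they do at KLF4 and SP3. Among 8055 named protein-coding genes with a promoter in the RefSeq table and no peak in the window, 827 (10.3%) had peaks in at least 2 lists at one of those promoters.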
